A study of Rattus norvegicus with 10 samples.

Results

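Binding of SOX6 in rat chondrosarcoma (RCS) cells, an established line of cartilage tumour cells, was described from the single SOX6 library of the series and the input library made for it. All 19355 intervals of the deposited SOX6 peak list were taken, out of 252939 peaks in the 6 lists of the series, with no selection by score or position. The SOX6 library was made by chromatin immunoprecipitation and sequencing with an antibody from Abcam, and its input is chromatin of the same cells sequenced without an antibody. The series holds 10 samples, all of RCS cells with no treatment or genotype given in the labels. Beside SOX6 they are immunoprecipitations of SOX9, H3K27ac, H3K4me1, H3K4me3 and H3K9me3 and 3 further inputs. Each antibody has 1 library, so no value has a replicate error. Intervals are 95% intervals that cover counting error only, and they are too narrow because neighbouring peaks are not independent.

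SOX6 belongs to the SoxD group of transcription factors, which bind DNA through a high-mobility-group box in the minor groove. SoxD proteins have no known activation or repression domain of their own. In cartilage SOX6 acts with the closely related SOX5 and with SOX9, the factor that sets the chondrocyte fate, and together they keep genes of the cartilage matrix active. H3K27ac marks active promoters and enhancers, H3K4me1 mainly enhancers, H3K4me3 mainly promoters, and H3K9me3 silent heterochromatin. A peak is an interval that the peak caller found to hold more reads than its background, and its score ranks the peaks of 1 list. An annotation or genome sequence of rn5, the build of the files, was not used here, so peaks are given by position, without a gene or a sequence.

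The peaks covered 10.2 Mb, or 0.353% of the 2902 Mb up to the last peak on each chromosome. Their width went from 84 to 4765 bp with a median of 460 bp (quartiles 315 and 659 bp). The deposited score went from 50 to 3220 with a median of 104 (65.2 and 223), so most of the list lies near its lower end. Of all peaks, 47.9% (Wilson interval 47.2% to 48.6%) scored below 100 and 18.9% (18.3% to 19.4%) below 60. No source used here states what the score measures, and scores were compared only between SOX6 peaks. The input held 78052139 reads, of which 41749922 aligned and 33382416 aligned without a mismatch. These exact matches are the measure of input used throughout.

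SOX6 peaks were unevenly spaced along the chromosomes. The gap from the edge of a peak to the next peak had a median of 39.0 kb (37.7 to 40.4 kb, 19334 gaps), with quartiles of 7.58 and 126 kb, while the mean was 148 kb. Gaps ran from 1 bp to 65.4 Mb. Short gaps were frequent, and 2319 gaps were at most 1 kb, 3397 (17.6%) at most 3 kb and 5948 (30.8%) at most 12500 bp. The histogram has a main mode near the median and a lower shoulder below 1 kb, where 845 gaps were no longer than 100 bp.

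**Figure D1:**
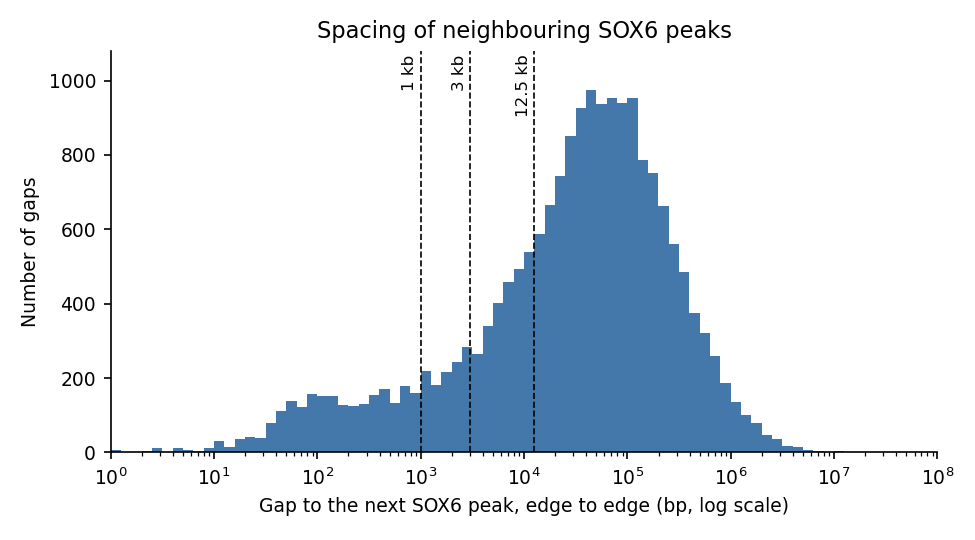
Number of gaps (y axis) between neighbouring SOX6 peaks by gap length in bp on a log scale (x axis), in bins of 0.1 log10 units, with dashed lines at 1000, 3000 and 12500 bp. The main mode lies to the right of the 12500 bp line, near the median of 39.0 kb, and a low shoulder lies to the left of 1 kb.

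High-scoring peaks had nearer neighbours than low-scoring ones. The median gap to the nearest SOX6 peak on either side was 13.2 kb for all peaks (12.6 to 13.9 kb). In the list cut into 5 equal parts by score, from the lowest quintile to the highest, it was 21.6, 15.6, 13.1, 10.3 and 8.91 kb. The spread inside each quintile was wide, with quartiles of 3.16 and 73.2 kb in the lowest and 1.07 and 34.5 kb in the highest. The scores of the 2 neighbours showed little relation to each other at any distance. Spearman's rho between them was -0.01 over the 845 pairs up to 100 bp apart, 0.04 over the 1078 pairs 1 to 3 kb apart and 0.03 over the 5332 pairs 50 to 200 kb apart, and it stayed between -0.04 and 0.07 in all 10 distance classes. These are correlations across sites of 1 library. In pairs up to 100 bp apart the higher score had a median of 226 and the lower 78.8, and in pairs 3000 to 12500 bp apart 209 and 74.4.

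Many of the closest neighbours lay under a single peak of another list. One H3K27ac peak spanned the gap in 89.8% (87.6% to 91.7%) of the 845 pairs up to 100 bp apart. For H3K4me1 this was 61.2% (57.9% to 64.4%), for H3K4me3 54.4% (51.1% to 57.8%) and for SOX9 23.2% (20.5% to 26.2%). At 100 to 1000 bp, SOX9 peaks spanned 5.83% (4.75% to 7.15%) of 1474 gaps and H3K27ac peaks 82.3% (80.3% to 84.2%). A peak can span a gap only if it is longer than that gap. These shares thus depend on the peak widths of each list, which were not compared, and the lists cannot be ranked by them. A SOX6 site that the caller divided into adjacent intervals and separate sites that lie side by side cannot be told apart in a peak list, so the shortest gaps count as either.

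The company of a SOX6 peak changed with the distance to its nearest SOX6 neighbour. H3K27ac overlapped 92.1% of peaks with a neighbour up to 100 bp away, 88.1% at 1 to 3 kb, 71.8% at 12500 to 50000 bp, 46.3% at 200 to 1000 kb and 32.4% (22.9% to 43.7%) of the 74 peaks with no neighbour within 1 Mb. H3K4me1 did not follow the same order. It was highest at 1000 to 3000 bp and at 3000 to 12500 bp, with 82.5% in both, against 74.8% (72.6% to 76.8%) of the closest peaks. H3K4me3 was at 51.7% to 57.9% in each class up to 1 kb, was 33.0% at 3000 to 12500 bp and stayed between 33.8% and 35.0% up to 200 kb. SOX9 overlapped 53.2% of the closest peaks and 37.3% at 50 to 200 kb. H3K9me3 stayed between 1.39% and 6.76%. Score moved with these shares, with a median of 120 in the closest class, 104 at 12500 to 50000 bp and 64.9 in the most isolated. Shares within quintiles of the score are given for groups of peaks.

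**Figure D2:**
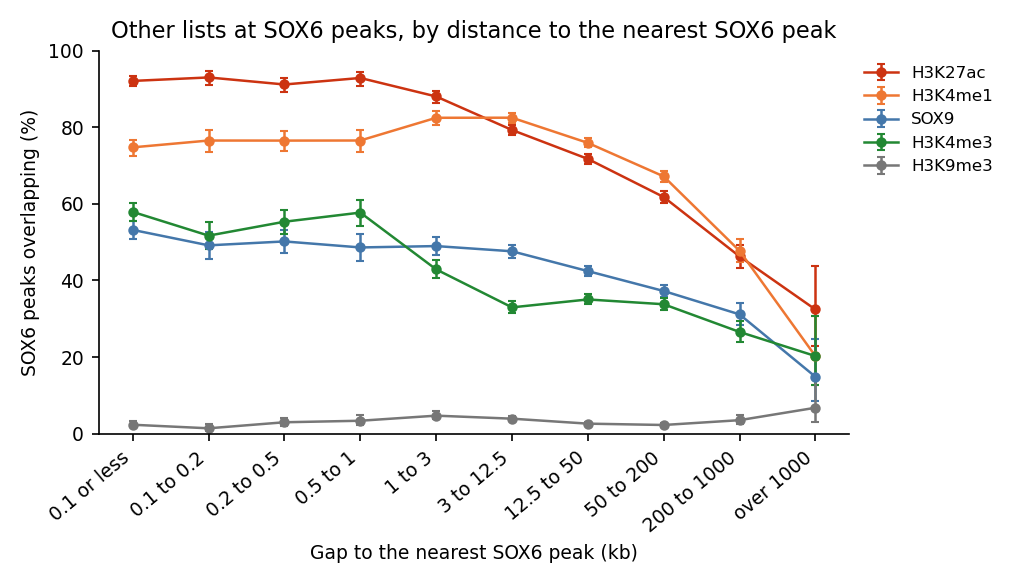
Share of SOX6 peaks in percent that overlap a peak of each other list by at least 1 bp (y axis), by the gap to the nearest SOX6 peak in kb (x axis), with Wilson 95% intervals. H3K27ac goes from 92.1% to 32.4%, H3K4me3 is higher in the 4 classes up to 1 kb than beyond, and H3K4me1 is highest between 1000 and 12500 bp.

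Joining neighbours by distance gave groups made of SOX6 peaks alone. Within 1 kb, 4238 peaks (21.9%, 21.3% to 22.5%) formed 1919 groups, of which 83.3% were pairs. Within 3 kb, 5963 peaks (30.8%, 30.2% to 31.5%) formed 2566 groups. Within 12500 bp, 9520 peaks (49.2%, 48.5% to 49.9%) formed 3572 groups, and 9835 peaks stayed single. Groups of 5 or more peaks numbered 13, 60 and 244 at these distances and held 78, 347 and 1548 peaks. The largest held 12, 15 and 16 peaks. Median lengths of groups were 1286, 1883 and 5760 bp. When only peaks above the median score were joined, 57 groups of 5 or more remained in place of 244, though leaving out peaks of any kind also breaks groups up.

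Most large groups held at least 1 high-scoring peak. Of the 244 groups with 5 or more peaks within 12500 bp, 202 had a member in the highest quintile of the score, and 3 had none above the median score of the list. A larger group has more chances to hold a high score. The highest-scoring member of each group within 12500 bp had a median score of 248 and a median width of 590 bp, and the other members 82.8 and 411 bp. SOX9 overlapped 65.5% (63.9% to 67.0%) of these highest-scoring members and 39.6% (38.4% to 40.9%) of the others, whereas H3K27ac differed less, at 90.1% (89.1% to 91.0%) and 84.6% (83.6% to 85.5%). The members were split by score, and SOX9 overlap itself went from 613 of 3871 peaks in the lowest quintile of the score to 3194 of 3871 in the highest. Leading and other members were not compared at similar score. In the 766 groups of 3 the highest score was in the middle in 34.2% (30.9% to 37.6%). The interval holds the share of 1 in 3 that no preferred position would give.

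Grouped SOX6 peaks lay in acetylated chromatin more often than single ones. Within 12500 bp, H3K27ac overlapped 86.6% (85.9% to 87.3%) of grouped and 65.1% (64.1% to 66.0%) of single peaks, a difference of 21.6 percentage points (Newcombe interval 20.4 to 22.7). At this distance the difference held within each quintile of the score and narrowed upwards. In the lowest quintile 71.1% of grouped and 37.7% of single peaks met H3K27ac, a difference of 33.4 points (30.3 to 36.3), and in the highest quintile 96.1% and 92.1%, a difference of 3.94 points (2.45 to 5.50). With groups within 1 kb it was not detectable in the highest quintile (0.876 points, -0.897 to 2.40), where 94.1% of single peaks met H3K27ac. With shares this high in single peaks, little room is left for a difference, so the narrowing in points is partly set in advance. SOX9 differed less, at 49.3% of grouped and 39.1% of single peaks, which is 10.2 points (8.80 to 11.6). By quintile the SOX9 difference within 12500 bp was 8.32 points (5.93 to 10.8) in the lowest, 3.35 (0.238 to 6.46) in the fourth and 4.19 (1.77 to 6.64) in the highest. At the shorter distances no SOX9 difference was detectable in the highest quintile, with -0.903 points (-3.81 to 1.82) within 1 kb and 0.461 (-2.08 to 2.91) within 3 kb. Among peaks above the median score, regrouped, the differences were 8.998 points for H3K27ac and 5.78 for SOX9.

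Differences in histone marks between grouped and other peaks changed with the joining distance. H3K4me3 overlapped 56.1% (54.6% to 57.6%) of peaks grouped within 1 kb and 34.5% (33.8% to 35.3%) of the rest, a difference of 21.6 points (19.9 to 23.3), against 11.5 points (10.1 to 12.9) for groups within 12500 bp. For H3K4me1 the order was the other way, with 1.94 points (0.454 to 3.39) within 1 kb and 10.2 points (9.01 to 11.5) within 12500 bp. H3K4me1 met 75.9% of grouped and 73.9% of the other peaks within 1 kb, and 79.5% and 69.3% within 12500 bp. Groups within 1 kb lie inside those within 12500 bp. Peaks grouped only at the longer distance count among the others within 1 kb, so the differences have unlike references. In the 12 groups of 5 to 9 peaks within 1 kb, 62 of 66 peaks met H3K4me3 and 22 met H3K4me1. In the only larger group, of 12 peaks on chromosome 8, 0 met H3K4me3 and 1 met H3K4me1. For H3K4me1 the sign depended on the score. Within 1 kb the difference was 22.0 points (18.1 to 25.7) in the lowest quintile and -8.68 points (-11.5 to -6.04) in the highest, where 81.1% of grouped and 89.8% of the other peaks met the mark. Within 12500 bp it was 23.8 points (20.7 to 26.8) in the lowest quintile and not detectable in the highest (-1.20 points, -3.26 to 0.903). H3K9me3 was rare in both classes, at 3.42% (3.08% to 3.81%) of grouped and 2.60% (2.31% to 2.94%) of single peaks within 12500 bp. Within 1 kb the order was reversed, at 2.50% of grouped and 3.15% of the other peaks, a difference of -0.648 points (-1.17 to -0.0677).

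The group with most SOX6 peaks within 12500 bp lay on chromosome 9 from 29242722 to 29305025 (rn5), with 16 peaks in 62.3 kb. All 16 met H3K27ac, 8 met SOX9 and 9 met H3K4me3, and their scores went from 53.2 to 2492 with a median of 137. A group of 15 on chromosome 2 from 218096984 to 218126699 had a lower median score, 88.7, with its highest at 3100, and 13 of its peaks met H3K27ac and 11 met H3K4me3. A group of 14 on chromosome 4 from 64746975 to 64809318 was acetylated at all 14 peaks and had H3K4me1 at 13 and H3K4me3 at 6. Such acetylation was common, as 175 of the 244 groups with 5 or more peaks (71.7%) met H3K27ac at every peak.

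A pair of large groups lay close together on chromosome 17. One ran from 45677615 to 45708032 with 12 peaks and the other from 45755708 to 45799387 with 14. H3K4me3 met 11 and 12 of their peaks but H3K4me1 only 1 and 4, and SOX9 met 4 and 3. The regions did not lack H3K4me1, since 8 and 15 H3K4me1 peaks lay in them, beside 7 H3K4me3 peaks in each. The opposite was found at the SOX6 peaks on chromosome 1 from 194026112 to 194075994, where all 11 met H3K27ac and H3K4me1 and 0 met H3K4me3. The group of 12 on chromosome 1 from 258333164 to 258396426 had H3K4me3 at 1 peak and H3K4me1 at 10, though 5 H3K4me3 and 7 H3K9me3 peaks lay in its region. That on chromosome 7 from 65363651 to 65415342 had H3K27ac and H3K4me1 at all 12 and SOX9 at 7. The last of the 10, on chromosome 8 from 6173460 to 6214298, held 11 peaks, of which 4 met H3K27ac and 2 met SOX9.

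The other group of 15 peaks, on chromosome 8 from 6266840 to 6288998, stood apart from all of these. None of its peaks met H3K27ac, H3K4me3 or H3K9me3, and 1 met SOX9 and H3K4me1, at scores of 61.4 and 53.6 in those lists. In order along the chromosome its SOX6 peaks scored 134, 153, 215, 111, 268, 2281, 1778, 507, 3100, 2028, 772, 525, 1884, 1230 and 3100. Each member lay above the median score of the whole list, and the last 10 each scored above 500. SOX6 intervals took up 74.3% of the 22.2 kb, against 10.1% to 27.5% in the 9 other groups named so far.

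**Figure D3:**
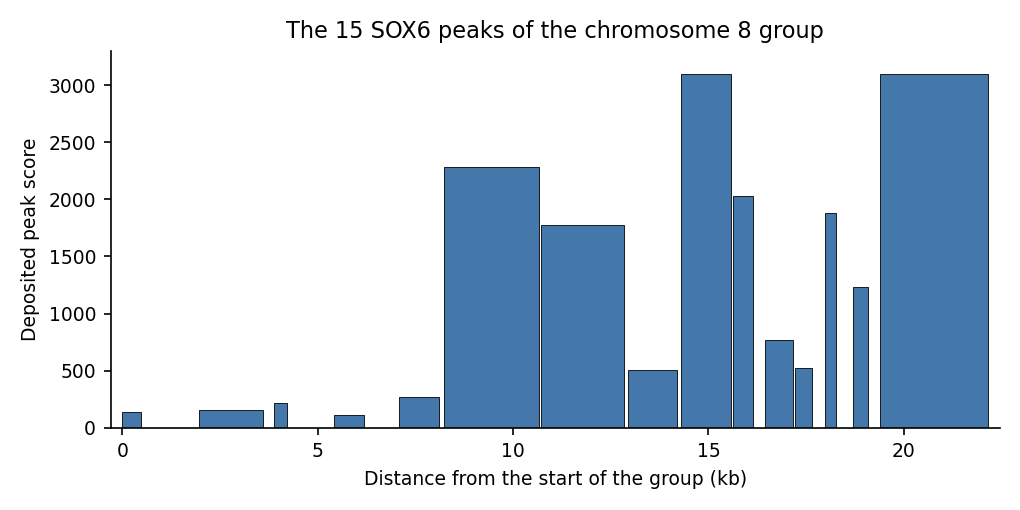
Deposited score (y axis) of each SOX6 peak in the group of 15 on chromosome 8, drawn from its start to its end as distance in kb from the start of the group (x axis). The first 5 peaks score at most 268, and the other 10 score from 507 to 3100 with little space between them.

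Around this group SOX6 peaks were also frequent. In the 250 kb on each side there were 31 further SOX6 peaks with a median score of 72.8, against 8 SOX9, 14 H3K27ac, 22 H3K4me1, 9 H3K4me3 and 5 H3K9me3 peaks. The group of 11 described above lies in these flanks. The input was deposited only as totals by chromosome, so the read depth under this region was not tested. Leaving out the whole 522 kb changed the share of grouped peaks from 49.2% to 49.1%. Of the 244 groups with 5 or more peaks, 2 others also lacked H3K27ac at every member. Each held 6 peaks. One lay on chromosome 2 from 182712026 to 182727558, where 5 peaks met H3K9me3, and the other on chromosome 17 from 58793701 to 58804192, where 5 met H3K4me3.

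Shorter joining distances brought up other sites. Within 1 kb, the next after chromosome 8 was a group of 8 on chromosome 7 from 44786510 to 44796096, in which SOX6 intervals filled 82.5% of 9.59 kb, all 8 peaks met H3K27ac and H3K4me3, and 7 met SOX9. Groups of 6 lay on chromosome 1 from 235506402 to 235510643, on chromosome 3 from 120851900 to 120855651 and on chromosome 13 from 94038792 to 94043645. All 6 peaks of each met H3K4me3, while 1, 5 and 0 met SOX9. Within 3 kb, a group of 10 on chromosome 2 from 218116036 to 218126699 was the densest part of the chromosome 2 group above. A group of 9 on chromosome 10 from 74131644 to 74144832 had H3K27ac and H3K4me1 at all 9 peaks and H3K4me3 at 2. A group of 8 on chromosome 8 from 6190831 to 6205217 was part of the group of 11 there.

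SOX6 peaks were more often grouped than SOX9 peaks. The SOX6 list is longer, so its 14782 highest-scoring peaks were set beside the 14782 SOX9 peaks. Within 12500 bp, 45.6% (44.8% to 46.4%) of these SOX6 peaks and 39.5% (38.7% to 40.3%) of SOX9 peaks were grouped, a difference of 6.07 points (4.95 to 7.20). Within 1 kb it was 19.7% of SOX6 and 14.9% of SOX9 peaks, which differ by 4.86 points (3.997 to 5.72). The SOX6 peaks chosen for this are the stronger part of their list and the SOX9 list was used whole. How far a different division of sites into intervals contributes was not tested.

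Higher-scoring SOX6 peaks were wider. In the list cut into 10 equal parts by score, the median width went up in every step, from 270.5 bp (quartiles 210 and 383 bp) to 848.5 bp (666 and 1090 bp). Spearman's rho between width and score was 0.62 across the 19355 peaks, given as a description because both come from the same reads. The relation was weak inside the 3 lower quintiles of the score, with rho of 0.11, 0.12 and 0.12, and was 0.19 and 0.35 in the 2 upper ones. Within each quintile of the score, peaks that met another list were wider than those that did not, for every other list. In the lowest quintile the median was 329 bp with and 249 bp without H3K27ac, and in the highest 768 and 591 bp. For H3K4me1 these medians were 345 and 238 bp in the lowest quintile and 780 and 585.5 bp in the highest. For H3K9me3 they were 326 and 289 bp in the lowest and 830.5 and 753 bp in the highest. A wide interval has more room to meet another peak, so these differences are not particular to active marks. How much of them comes from width alone was not tested.

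**Figure D4:**
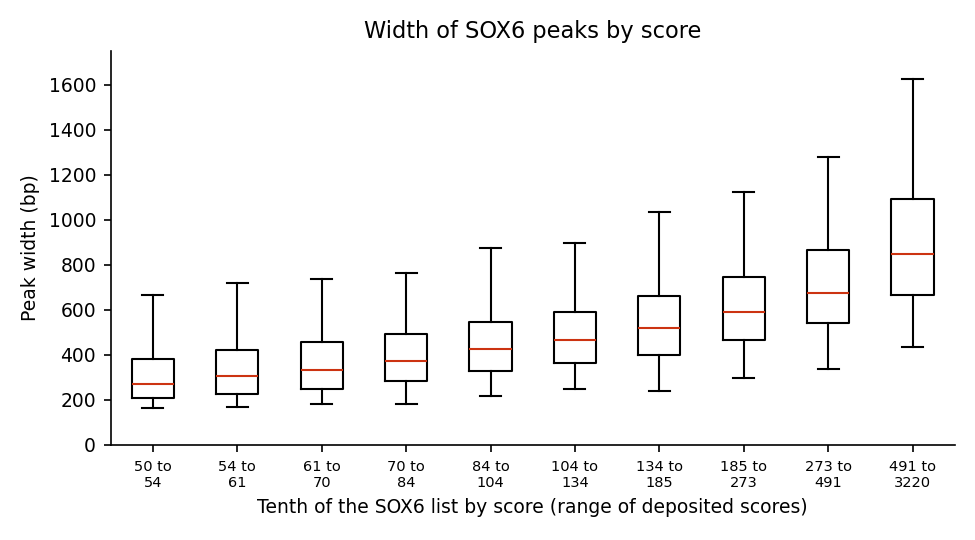
Width of SOX6 peaks in bp (y axis) by decile of the deposited score (x axis, with the range of scores in each decile). Red lines are medians, boxes run between quartiles and whiskers from the 5th to the 95th percentile. The median goes from 270.5 bp in the lowest decile to 848.5 bp in the highest, and neighbouring boxes overlap.

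The single widest peaks were not the highest-scoring. The first, on chromosome 16 from 50216718 to 50221482, spanned 4765 bp and scored 201, and 5386 peaks scored higher. The next were also on chromosome 16, from 50146422 to 50151054 (4633 bp, score 1155) and from 50092983 to 50096984 (4002 bp, score 227). The first 3 thus lie near each other. The fifth widest, on chromosome 7 from 116340739 to 116343882, was 3144 bp wide with a score of 74.4. The remaining peaks among the 10 widest began on chromosome 7 at 69227500, on chromosome 2 at 71037092, on chromosome 9 at 16704876 and 16674488, on chromosome 10 at 74060981 and on chromosome 16 at 54833764, with widths of 2798 to 3557 bp. All 10 met H3K27ac, H3K4me1 and H3K4me3, 7 met SOX9 and 3 met H3K9me3. The 59 peaks of 2000 bp or more had a median score of 831, and of these 83.1% met H3K4me3 and 18.6% H3K9me3, against 39.2% and 3.01% of the list. The 1157 peaks of at most 200 bp met H3K27ac in 41.8% and SOX9 in 15.1%. A wide interval has more room to meet a peak of another list than a narrow one, and no allowance was made for this.

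Wide peaks were concentrated on a few chromosomes. Chromosomes 7, 9 and 16 held 36 of the 59 peaks of 2000 bp or more, with 12 each, and 18.5% of all SOX6 peaks. These are also the autosomes with most input reads for their length. Across the 20 autosomes the median SOX6 width went from 357 bp on chromosome 20 (321 to 383 bp) to 586 bp on chromosome 7 (558 to 609 bp), while exact-match input reads went from 7.25 per kb on chromosome 15 to 20.6 on chromosome 16. Pearson's r between them was 0.92 and Spearman's rho 0.95, and 0.88 and 0.94 without chromosomes 9 and 16, the farthest from the median in input. The relation was present in the lowest quintile of the score (rho 0.93) and in the highest (rho 0.74). The median score did not follow the input in this way (rho -0.30). In the SOX9 list, with its own input, rho for width was 0.94. Autosomes of 1 library share its depth and its cells, so these are descriptions with no p-value. Input depth per chromosome thus moves with width, and its part in the widths was not tested.

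**Figure D5:**
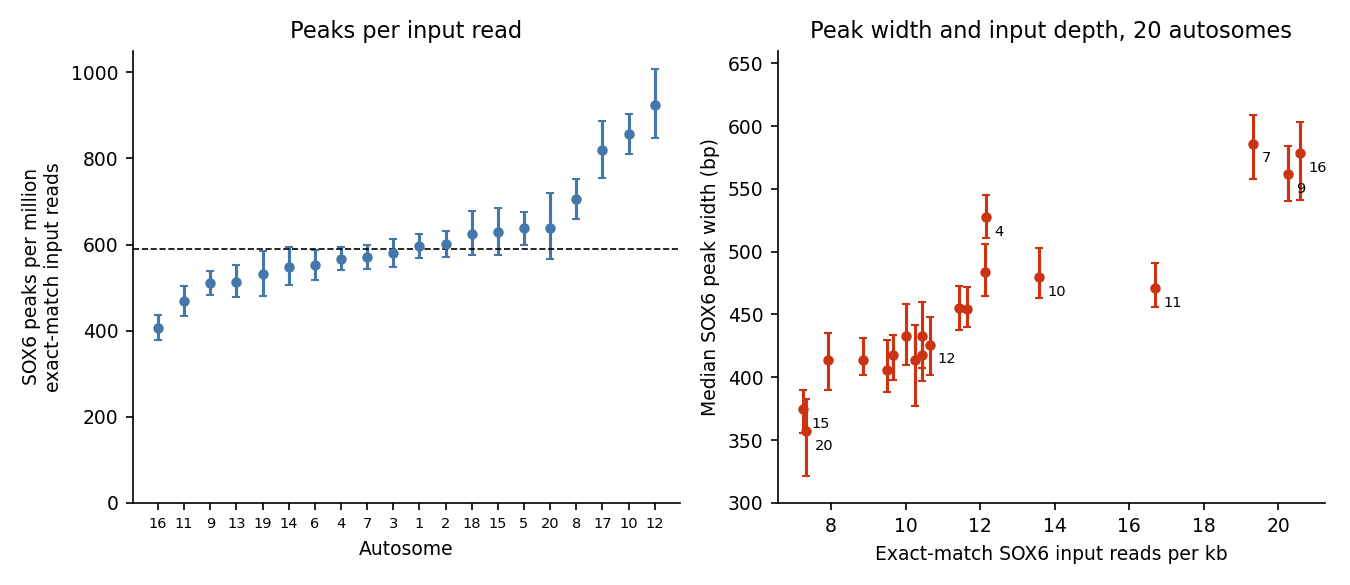
Left, SOX6 peaks per 1000000 exact-match input reads on each autosome with exact Poisson 95% intervals, ordered by value, with the value of all autosomes together as a dashed line (589). Right, median SOX6 peak width in bp (y axis, starting at 300 bp) with a binomial 95% interval for the median, against exact-match SOX6 input reads per kb (x axis), 1 point per autosome. Chromosomes 7, 9 and 16 have the most reads and the widest peaks.

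Peak number followed the input but less than in proportion. SOX6 peaks numbered 4.55 per Mb on chromosome 15 and 11.6 on chromosome 10, and over the 20 autosomes this density followed input reads per Mb with Pearson's r of 0.73 and Spearman's rho of 0.82. Divided by the input, the autosomes together gave 589 peaks per 1000000 exact-match reads (581 to 598). The coefficient of variation between autosomes was 28.9% for peaks per Mb and 20.9% for peaks per 1000000 reads. Peaks per 1000000 reads in turn went down as input reads per Mb went up (r -0.46, rho -0.58), and without chromosomes 9 and 16 less so (r -0.27, rho -0.42). Both sides of that relation contain the input count. Base pairs under peaks per input read showed little relation to the input (r 0.15, rho 0.23).

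The autosomes still differed per input read by more than counting error. The highest were chromosome 12 with 925 peaks per 1000000 reads (848 to 1007), chromosome 10 with 856 (810 to 904) and chromosome 17 with 819 (754 to 887), whose intervals overlap each other. Chromosome 8 with 705 (660 to 753) and chromosome 5 with 637 (600 to 676) also lay above the value of all autosomes. At the lower end were chromosome 16 with 407 (378 to 437) and chromosome 11 with 468 (435 to 503), whose intervals meet only narrowly. Chromosome 9 had 510, chromosome 13 had 514, chromosome 19 had 531 and chromosome 6 had 552, all with intervals below the overall value. On the other 9 autosomes the interval held it, with values from 549 on chromosome 14 to 639 on chromosome 20.

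Chromosome 12 thus had 2.27 times (2.03 to 2.54) the peaks per read of chromosome 16. These are the extremes of 20, picked after ranking, so the interval is too narrow. On chromosome 11 only 46.1% of aligned input reads were exact matches, compared with 68.2% to 89.6% on the other autosomes. With all aligned reads as the background, chromosome 11 became the lowest at 216 peaks per 1000000 reads and the ratio rose to 3.58. Counting base pairs in place of peaks, the ratio was 1.83, between chromosomes 10 and 11. On X, 231 peaks gave 248 per 1000000 reads (217 to 283), or 0.422 times the autosomes together (0.369 to 0.480).

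Stretches without a SOX6 peak took up a large part of the genome. There were 450 gaps of 1 Mb or more between neighbouring peaks, 976 Mb in all, or 33.6% of the span. Their median length was 1.52 Mb, 132 reached 2 Mb, 18 reached 5 Mb and 6 reached 10 Mb. On X, 41 such gaps covered 77.8% of the chromosome. On the autosomes the share went from 9.95% on chromosome 7 and 11.4% on chromosome 9 to 44.8% on chromosome 15. It was lower where the input was deeper, with r of -0.83 and rho of -0.71 over 20 autosomes.

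The other active lists were sparse in the same stretches. Inside the gaps of 1 Mb or more there were 0.679 SOX9 peaks per Mb (0.628 to 0.733) against 7.33 elsewhere, a rate ratio of 0.0926 (0.0855 to 0.1001). For H3K27ac the ratio was 0.0965 (0.0926 to 0.101) and for H3K4me1 0.0949 (0.0920 to 0.0979). H3K4me3 was less depleted, with 0.169 (0.161 to 0.177), and H3K9me3 least, with 9.78 peaks per Mb inside and 22.3 elsewhere, a ratio of 0.439 (0.430 to 0.449). On the autosomes alone the ratios were 0.0980 for SOX9, 0.0940 for H3K27ac, 0.103 for H3K4me1, 0.161 for H3K4me3 and 0.473 for H3K9me3. The gaps hold no SOX6 peak by definition, so a peak of another list that meets SOX6 always counts as elsewhere. Of all SOX6 peaks, 44.1% met SOX9, 75.7% H3K27ac, 74.3% H3K4me1, 39.2% H3K4me3 and 3.01% H3K9me3. The ratios and their order are thus partly set by how the gaps were chosen, and they were not recomputed without such peaks. Of the 450 gaps, 137 held no SOX9 peak, 51 no H3K27ac peak and 3 no peak of any other list.

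The longest gap was on chromosome 4 from 67918043 to 133268297, 65.4 Mb or 26.3% of the chromosome's span and 3.23 times the next. It held 5 peaks of the other 5 lists together, 1 of H3K27ac, 1 of H3K4me1 and 3 of H3K9me3. The stretch is thus nearly empty in all 6 lists and not in that of SOX6 alone. The genome assembly, the cells and the content of the files cannot be told apart here as its source, and the same holds for the densities of chromosome 4. The peaks that border it scored 91.6 and 88.8. If the gap holds no input reads, which totals by chromosome cannot show, the rest of chromosome 4 had 16.5 exact-match reads per kb in place of 12.2. It also had 9.35 SOX6 peaks per Mb in place of 6.89. The ratios of the gaps to elsewhere without this gap were 0.0992 for SOX9, 0.103 for H3K27ac and 0.471 for H3K9me3.

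The next gap lay on chromosome 2 from 20549012 to 40754228 (20.2 Mb). It was less empty than the longest, with 88 H3K9me3, 9 H3K4me1, 2 H3K27ac, 2 H3K4me3 and 1 SOX9 peak. For its length this is still below the 9.78 H3K9me3 peaks per Mb of all gaps of 1 Mb or more. That on chromosome 19 from 11725568 to 23681422 (11.96 Mb) held 20 peaks of the other lists. On chromosome 6 from 9674489 to 20458533 (10.8 Mb) there were 28 H3K4me1 and 5 H3K27ac peaks. Both lie below the rates of all gaps of 1 Mb or more, 4.35 and 2.43 per Mb. X held 4 of the 10 longest, from 83639896 to 94853804, from 141459675 to 152177391, from 125931505 to 135191093 and from 45218021 to 52463074, with 7 to 17 H3K27ac and 6 to 15 H3K4me3 peaks inside each. The last were on chromosome 13 from 21877997 to 28971183 and on chromosome 3 from 89749060 to 96371686, with 3 and 6 SOX9 peaks.

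The 74 SOX6 peaks with 1 Mb or more free on both sides were weak and narrow, with a median score of 64.9 and a median width of 297.5 bp. SOX9 met 14.9% (8.51% to 24.7%) of them and H3K4me1 20.3% (12.7% to 30.8%), against 44.1% and 74.3% of the whole list. H3K9me3 met 5 of the 74, or 6.76% (2.92% to 14.9%), an interval that holds the 3.01% of all SOX6 peaks.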

How the data were processed

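The files were used as the authors deposited them. The SOX6 file and the lists of SOX9 and the 4 histone marks are peak lists of 1 library each, not pooled, and their peak names carry the name of the peak caller MACS, per the file contents. The deposited score of each peak has no stated scale and was used only inside its own list. The input files give a raw count of reads by chromosome and by number of mismatches, per the file headers. Per the submitters' processing notes the build is rn5 and CASAVA 1.8 was used. The aligner, the caller's version and settings and the input set against each list are given in none of the sources used here.

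Files were read as intervals counted from 0 and are printed counting from 1. The gap is the distance between edges, groups join peaks no farther apart than the stated distance, and overlap means at least 1 bp. A peak of another list is inside a gap only if all of it is. Score quintiles and deciles were formed by rank. The last peak end over all 6 lists stood in for chromosome length. Shares carry Wilson, differences Newcombe, rates exact Poisson, rate ratios conditional binomial and medians order-statistic intervals. Every test over samples needs replicates, so none was made. Computations used Python 3.11.15, numpy 2.4.6, pandas 2.3.3 and scipy 1.17.1, and the functions were tested on simulated lists with known groups, gaps and overlaps. The SOX6 input held 78052139 reads. The depth of the SOX6 library itself was not used here.

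The members, regions named and settings were chosen with earlier results of these data known. Regions named are the 10 largest groups within 12500 bp, the 5 largest within 3 kb and within 1 kb, the 10 widest peaks and the 10 longest gaps, with ties in order of position. The 2 further groups without H3K27ac, the members and flanks of the chromosome 8 group, the classes of distance to the nearest peak, the comparison with SOX9, the neighbours spanned by 1 peak and the 5 Mb windows were added after values were seen.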

Additional observations from a re-analysis of the deposited data

How the results depend on the processing

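Of 39 recomputed values, 21 stayed within the interval of the reported value or, for counts, within 1.5 times. Most of the 39 are gaps, shares, counts or a ratio of extremes, which have no direction to reverse. The correlation of width and score and the grouped minus single differences for SOX9 and H3K27ac can change sign, and none did. Differences within quintiles of the score and those for the other marks were not among the 39. With only peaks above the median score, the median gap was 74.5 kb, the share in groups 14.4% within 1 kb, 21.8% within 3 kb and 37.3% within 12500 bp, the groups of 5 or more numbered 57, the rank correlation of width and score was 0.49, and the grouped minus single differences were 5.78 points for SOX9 and 8.998 for H3K27ac. With gaps from centre to centre, the shares were 16.3% within 1 kb and 28.6% within 3 kb. Joining within 20 kb gave 385 groups of 5 or more and joining within 10 kb 193, while counting peaks up to 100 bp apart as 1 gave 186. The rank correlation of width and score was 0.65 in single peaks and 0.66 without chromosomes 7, 9 and 16. The ratio of the highest to the lowest autosome was 3.58 with all aligned reads and 1.83 with base pairs under peaks. Gaps of at least 0.5 Mb numbered 1224 and of at least 2 Mb 132. With groups within 1 kb, the SOX9 difference was 8.62 points. The moves with other joining distances, gap lengths and fewer peaks follow from how those settings are built, and the cause of the rest was not tested. A planned run without the most frequent tied score and those above it was not made, because that score was 53.1 and few peaks would remain. The run without scores of 3100 and above took its place after the data were seen, as did those without chromosomes 7, 9 and 16, without X for the number of gaps, without the chromosome 8 region and with peaks up to 100 bp apart counted once. No paired analysis was possible because each antibody has 1 library. Precision is limited by 1 library, by an unknown score scale and by inputs given only as totals by chromosome.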

Other observations

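Peak width also varied along the chromosomes. In 485 windows of 5 Mb with 10 or more SOX6 peaks, the median width in a window had a median of 440 bp and went from 251 to 902 bp. Of the 20 windows with the widest peaks, 17 lay on chromosomes 7, 9 or 16, which held 71 of the 485 windows. The widest were on chromosome 16 from 50 to 55 Mb (902 bp over 69 peaks), from 45 to 50 Mb (846 bp over 77) and from 85 to 90 Mb (833 bp over 37), followed by chromosome 7 from 65 to 70 Mb (802 bp over 91). Over windows, median width had a Spearman's rho of 0.28 with median score and 0.37 with the number of peaks.

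The windows with most SOX6 peaks were others. Chromosome 10 held 160 peaks from 85 to 90 Mb and 144 from 105 to 110 Mb, against a median of 34, with median widths of 521 and 578 bp. Only the window on chromosome 9 from 15 to 20 Mb was among the 10 first in both orders, with 105 peaks and a median width of 767 bp. Chromosome 10 as a whole had the shortest median gap of the autosomes, 21.9 kb, and the largest share of peaks in groups within 12500 bp, 60.9%, compared with 64.5 kb and 39.5% on chromosome 20.

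A score value of 53.1 was shared by 165 SOX6 peaks, more than any other value, while 26 peaks shared 3100 and 4 lay above it.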
